A study of Mus musculus with 32 samples.

Results

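The spinal cord RNA-seq of 32 mice was examined for 10 genes of MHC class I antigen presentation, chosen by name: H2-K1, H2-D1, H2-T23, B2m, Tap1, Tap2, Tapbp, Psmb8, Psmb9 and Nlrc5, out of 42524 genes in the count table. All 10 were found in the table and all 10 passed the low-count filter in every fit. The mice fell into 8 groups of 4: wild-type (WT) or G93A mice, untreated or given OKN-007, with a time label of 90 or 155 days. G93A mice carry a human SOD1 transgene with the G93A mutation, a model of amyotrophic lateral sclerosis (ALS), and were bred on C57BL/6J by the study, with WT littermates as controls. OKN-007 is a nitrone compound given here as the drug. The labels give no dose. In the study's methods the cohorts killed at these ages had OKN-007 in drinking water at the higher of its doses, which of them were sequenced was not given in the sources used here, and the earlier age is slightly later than in the labels. The transgene is expressed throughout the body, is present at high copy number and comes from 1 transgenic line, which limits the G93A groups as a model. The tissue was a weighed piece of spinal cord in bulk, with its segments not given in the sources used here, and more cells of a type and more RNA per cell cannot be told apart.

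MHC class I molecules show peptides from inside the cell to CD8 T cells and to receptors of natural killer cells. The proteasome cuts proteins into peptides, and its immunoproteasome form carries the catalytic subunits encoded by Psmb8 and Psmb9. The TAP transporter, a pair of Tap1 and Tap2, pumps the peptides into the endoplasmic reticulum, where tapasin, encoded by Tapbp, helps load them onto a heavy chain bound to beta-2 microglobulin, the product of B2m. H2-K1 and H2-D1 encode the classical heavy chains of the C57BL/6 mouse, and H2-T23 encodes the non-classical heavy chain Qa-1. Nlrc5 encodes a transactivator of class I genes that acts through the factors bound at their promoters. In the healthy central nervous system class I levels are low, and interferons raise them in glia and in neurons.

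The stretches before the transcription start are shown for 4 members because the class I heavy chain and B2m promoters carry sequence elements through which interferon, NF-kB and NLRC5 are known to act, and because Tap1 and Psmb9 are transcribed away from each other from 1 shared region. RefSeq windows (GRCm38.p6) were found for 8 of the 10 members, in 9 windows, each from 250 bases before to 50 bases after the start. The 250 bases before the start are given 5′ to 3′ on the gene's strand, with matches to the searched motifs in capitals. H2-K1 is chr17:34000348-34000597 on the minus strand, H2-D1 is chr17:35262844-35263093 on the plus strand, B2m is chr2:122147437-122147686 on the plus strand and Tap1 is chr17:34187306-34187555 on the plus strand.
H2-K1: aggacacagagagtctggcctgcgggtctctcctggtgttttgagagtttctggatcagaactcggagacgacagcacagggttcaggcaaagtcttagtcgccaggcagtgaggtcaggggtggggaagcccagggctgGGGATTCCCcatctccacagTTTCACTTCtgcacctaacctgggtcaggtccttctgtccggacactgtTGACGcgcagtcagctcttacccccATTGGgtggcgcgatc
H2-D1: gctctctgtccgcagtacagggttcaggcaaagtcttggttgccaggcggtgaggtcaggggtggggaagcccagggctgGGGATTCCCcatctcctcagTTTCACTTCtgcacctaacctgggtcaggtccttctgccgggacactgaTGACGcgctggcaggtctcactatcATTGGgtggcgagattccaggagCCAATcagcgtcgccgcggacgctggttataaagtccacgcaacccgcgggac
B2m: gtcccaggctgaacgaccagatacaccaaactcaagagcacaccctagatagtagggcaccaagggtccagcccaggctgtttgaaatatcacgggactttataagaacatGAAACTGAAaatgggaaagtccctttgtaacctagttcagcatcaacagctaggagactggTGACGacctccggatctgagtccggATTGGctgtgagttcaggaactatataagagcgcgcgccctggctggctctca
Tap1: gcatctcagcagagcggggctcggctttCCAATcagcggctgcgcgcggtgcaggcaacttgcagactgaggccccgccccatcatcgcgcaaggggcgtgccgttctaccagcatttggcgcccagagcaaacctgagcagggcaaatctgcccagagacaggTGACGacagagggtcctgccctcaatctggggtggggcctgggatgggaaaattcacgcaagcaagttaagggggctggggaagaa

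The motifs were searched on both strands of all 32851 promoter windows. GGGATTCCC, the kappa B sequence of the class I enhancer, was in 0.353% of the windows and, among the members, in H2-K1 and H2-D1. GAANTGAAA, an interferon-stimulated response element, was in 1.83% of the windows and in the same 2 members. GAAANNGAA, another form of that element, was in 8.56% of the windows and in B2m and H2-T23, and the 2 forms can overlap. TTCNNNGAA, the gamma-activated sequence, was in 8.30% of the windows and in Psmb8. TGACG, a cAMP response element core, was in 20.8% of the windows and in 5 members, and CCAAT was in 37.4% of the windows and in 7 members. In H2-K1 the kappa B, interferon, TGACG and ATTGG matches began at -110, -90, -41 and -16 relative to the start of the window shown. In H2-D1 they began at -170, -150, -101 and -76, in the same order and with the same spacing. H2-K1 has another RefSeq start, relative to which the same matches began at -124, -104, -55 and -30. In B2m the interferon, TGACG and ATTGG matches began at -139, -78 and -53. In these 3 genes the TGACG and the ATTGG, which is CCAAT on the other strand, lay 25 bases apart from first base to first base, and that arrangement was in 31 (0.0944%) of all windows. It was looked for after the matches had been seen. A match is a description of the letters and not a binding site.

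The gene counts of a mouse summed to 19701722 at the lowest, 26658755 at the median and 30138257 at the highest. Values are given as CPM, read counts scaled to a common library size with TMM factors, and the smallest count behind any member value was 29, for Psmb9. The labelled tissue was checked against its defining markers: genes of neurons, astrocytes and oligodendrocytes were all well above 0, while the mean log2 level of caudal Hox genes was 4.02 to 4.67 in WT and 2.07 to 3.84 in G93A untreated mice at 155 days. The main result is therefore also given below with this level as a covariate. Liver genes summed to 190 CPM in replicate 12 of the untreated G93A mice at 155 days, to 133 CPM in replicate 15 of the treated G93A mice at 155 days and to 76.8 CPM in replicate 6 of the treated WT mice at 90 days, against 0.612 to 41.6 CPM in the other mice. The p-values of the fits weigh a difference against the spread between mice within groups, which was estimated over all groups of the fit.

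In the WT cord every member was expressed, at very different levels. Per kilobase of exon, untreated WT mice at 155 days had 119 ± 11.3 CPM per kilobase of B2m (SD, n = 4) and 36.7 ± 6.23 of H2-D1. Tapbp with 11.7 ± 0.688 and H2-K1 with 11.4 ± 2.55 CPM per kilobase followed and overlapped in their ranges. Below them came Tap2 with 6.02 ± 0.442, H2-T23 with 3.82 ± 0.823 and Psmb8 with 1.91 ± 0.652 CPM per kilobase, each apart from its neighbours in this order. Tap1 with 0.746 ± 0.209 and Psmb9 with 0.547 ± 0.295 CPM per kilobase overlapped, and Nlrc5 was lowest with 0.228 ± 0.0827. On this scale the light chain thus exceeded each heavy chain, and the transactivator and the immunoproteasome subunit Psmb9 had the lowest means. The length used was that of all annotated exons of a gene merged, which can exceed the length of its main transcript. The order, such as that of Psmb9 and Tap1, depends on this choice. The order of the 10 genes by mean was the same in all 6 groups other than the G93A mice at 155 days.

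In untreated mice at 155 days all 10 members were higher in G93A than in WT spinal cord, with the lowest G93A mouse above the highest WT mouse for each of them. By edgeR's quasi-likelihood test with Benjamini-Hochberg adjustment over 18675 genes, 10 of 10 members passed an adjusted p of 0.05 in the direction of higher levels, where 21.3% of all genes tested did so. The groups did not overlap in that direction for 10 of 10 members and for 17.4% of all genes. Because the members were chosen with earlier results of these data known, these counts beside the shares are a description. The median log2 fold change of the members was 1.82, against 0.00 over all genes, and the adjusted p-values ran from 1.13e-09 to 1.33e-04. The largest changes were in Psmb8, B2m and Nlrc5 and the smallest in Tap2 and Tapbp.

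**Figure D1:**
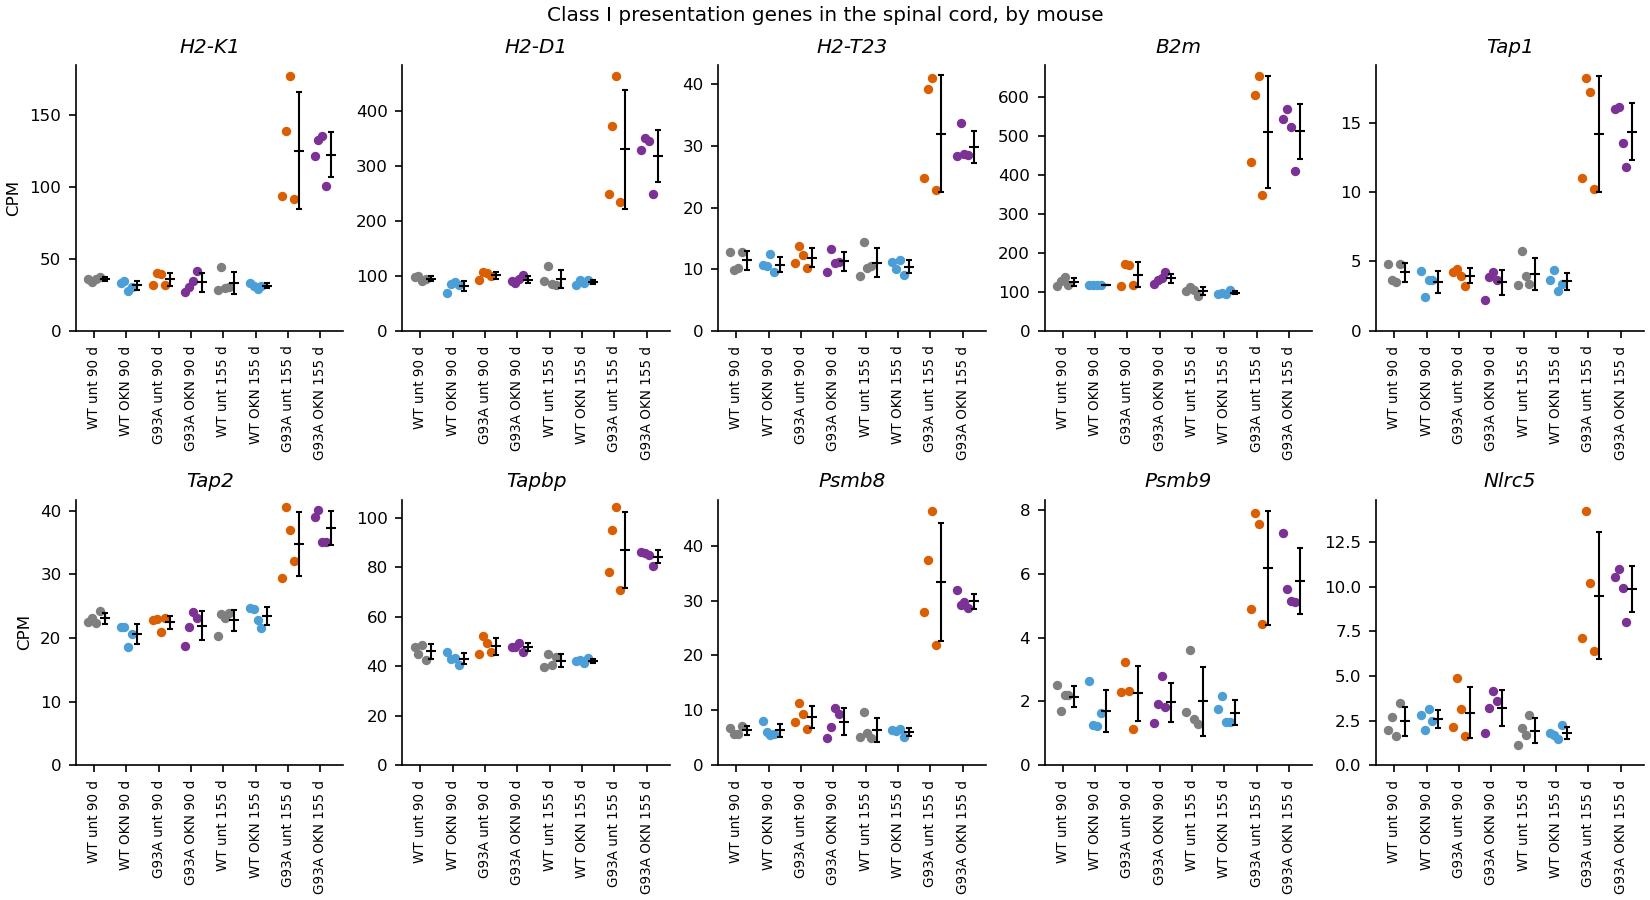
Level of each of the 10 class I presentation genes in CPM on a linear axis from 0, with 1 point per mouse and the mean ± SD of the 4 mice beside each group (unt, untreated; OKN, OKN-007; d, days). In every panel the 8 G93A mice at 155 days lie above the other groups, as for B2m, with 349 to 652 CPM against 89.4 to 172 CPM in all others.

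All 3 heavy chain genes rose, with 95% intervals that overlapped each other. H2-K1 (chromosome 17, 33996017 to 34000347, minus strand, GRCm38) was at 28.7, 44.6, 29.9 and 30.4 CPM in the 4 WT mice and at 93.8, 139, 177 and 91.7 CPM in the 4 G93A mice. No G93A value came near the WT values, and the G93A mice fell into a higher and a lower pair. The log2 fold change was 1.92 (SE 0.18), a 3.80-fold difference with an adjusted p of 1.10e-07. H2-D1 (chromosome 17, 35262730 to 35267499, plus strand) stood at 84.4 to 118 CPM in WT and at 250, 373, 464 and 235 CPM in G93A mice, a log2 fold change of 1.82 (SE 0.18). H2-T23 (chromosome 17, 36029773 to 36032855, minus strand) was at 8.98 to 14.5 CPM in WT and at 24.9, 39.2, 41.0 and 22.8 CPM in G93A mice, a log2 fold change of 1.55 (SE 0.17). The same 2 G93A mice, replicates 10 and 11, were highest for all 3 heavy chains. Of the 50-base words of their transcripts, 9.63% in H2-K1, 12.8% in H2-D1 and 13.6% in H2-T23 also occur in another gene, so the split of reads among heavy chain genes is uncertain. These are shares of words and do not measure how many reads are affected.

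B2m, whose product pairs with every heavy chain and which lies outside the MHC (chromosome 2, 122147686 to 122153083, plus strand), was the most abundant member. It was at 102, 113, 105 and 89.4 CPM in the WT mice and at 432, 604, 652 and 349 CPM in the G93A mice. The lowest G93A mouse thus exceeded the highest WT mouse by a wide margin. The log2 fold change was 2.33 (SE 0.16), 5.02-fold, with an adjusted p of 1.13e-09. No 50-base word of B2m occurs in another gene, and Patl2, which covers it on the opposite strand, was near 0, with 0.280 CPM in the WT mice and 0.171 CPM in the G93A mice.

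Both chains of the peptide transporter rose, with 95% intervals of 1.38 to 2.25 for Tap1 and 0.43 to 0.82 for Tap2 on the log2 scale. Tap1 (chromosome 17, 34187553 to 34197225, plus strand) was at 3.28, 5.73, 3.98 and 3.35 CPM in WT and at 11.03, 18.3, 17.2 and 10.2 CPM in G93A mice, a log2 fold change of 1.82 (SE 0.21) with an adjusted p of 1.37e-06. Tap2 (chromosome 17, 34203527 to 34216321, plus strand), which codes for the partner chain, was at 20.3, 23.8, 23.1 and 23.9 CPM in WT and at 29.4, 40.6, 36.9 and 32.1 CPM in G93A mice. Its log2 fold change was 0.62 (SE 0.09), 1.54-fold, the smallest of the 10, and its 4 G93A mice still lay above all 4 WT mice. Tapbp (chromosome 17, 33915899 to 33929292, plus strand), which codes for the peptide-loading chaperone tapasin, was at 39.8 to 45.0 CPM in WT and at 78.2, 94.9, 104 and 70.8 CPM in G93A mice, a log2 fold change of 1.05 (SE 0.09). Zbtb22 shares 3422 bases with Tapbp on the same strand and was at 32.4 CPM in WT and 32.04 CPM in G93A mice.

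Both immunoproteasome subunits rose. Psmb8 (chromosome 17, 34197721 to 34201454, plus strand) was at 5.22, 9.73, 5.93 and 5.02 CPM in WT and at 28.0, 37.4, 46.3 and 21.96 CPM in G93A mice. Even the WT mouse that stood above the others, replicate 2, was below all G93A mice, and the log2 fold change was 2.39 (SE 0.21), 5.24-fold, the largest of the 10, with an adjusted p of 3.64e-08. Psmb9 (chromosome 17, 34181987 to 34187764, minus strand) was at 1.68, 3.60, 1.45 and 1.28 CPM in WT and at 4.89, 7.90, 7.55 and 4.43 CPM in G93A mice. Here the gap between the highest WT and the lowest G93A mouse was narrow, and the log2 fold change was 1.66 (SE 0.28) with an adjusted p of 1.33e-04. Tap1 and Psmb9 overlap by 212 bases on opposite strands.

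Nlrc5 (chromosome 8, 94434356 to 94527272, plus strand), the class I transactivator, was at 1.16, 2.08, 1.68 and 2.82 CPM in WT and at 7.15, 14.2, 10.2 and 6.38 CPM in G93A mice. The groups were well apart, and the log2 fold change was 2.29 (SE 0.25), 4.91-fold, with an adjusted p of 8.99e-07. The transcript 9330175E14Rik overlaps it by 748 bases on the opposite strand and was at 0.298 CPM in WT and at 2.22 CPM in G93A mice. The libraries were made with a stranded kit, but whether reads were counted by strand was not given in the sources used here, so reads of Nlrc5 and of this neighbour may not have been kept apart.

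The order of the mean levels was not the same in the G93A cord at 155 days. Per kilobase, untreated G93A mice at 155 days had 592 ± 166 CPM of B2m, 128 ± 42.1 of H2-D1 and 42.7 ± 13.9 of H2-K1, which then stood above Tapbp with 23.98 ± 4.20. H2-T23 with 11.1 ± 3.28, Psmb8 with 9.88 ± 3.16 and Tap2 with 9.19 ± 1.32 CPM per kilobase followed, with neighbours overlapping. Psmb8 was below Tap2 in every WT group and in the G93A groups at 90 days. In G93A mice with OKN-007 at 155 days it also stayed below, with 8.83 ± 0.413 against 9.86 ± 0.695 for Tap2, and their ranges overlapped. Tap1 with 2.59 ± 0.757, Psmb9 with 1.69 ± 0.488 and Nlrc5 with 1.12 ± 0.420 CPM per kilobase remained lowest, each overlapping the next.

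The microglia markers moved with these genes. All 10 listed markers of microglia, the resident immune cells of the cord, were higher in untreated G93A than in WT mice at 155 days, with a median log2 fold change of 2.35, and none of them was at 0 in any mouse. Their summed level was 330 to 408 CPM in the WT and 1468 to 2642 CPM in the G93A mice. Among the 4 G93A mice the members summed to 1556, 1369, 959 and 844 CPM in replicates 11, 10, 9 and 12, and the microglia markers to 2642, 2376, 1727 and 1468 CPM in the same order. The astrocyte markers, of which 6 of 8 were called higher, summed to 6438 to 7218 CPM in the WT mice and, in the same order of G93A mice, to 19121.5, 19040, 15720 and 15506 CPM. The part of microglia and astrocytes in the members' rise was not tested. Of 8 endothelial markers, 0 passed the threshold, with a median log2 fold change of -0.20. With the caudal Hox level as a covariate all 10 members passed, with a median of 1.86. That level did not overlap between the G93A and WT mice, so this fit cannot fully separate it from genotype. Without the libraries that hold liver transcripts all 10 passed with a median of 1.95. In the main fit 21.3% of all genes were called higher, and the share in these other fits is not given here.

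Ratios of counts within a mouse, which do not depend on how libraries are scaled, were compared to see which members rose beyond their partners. Psmb8 replaces the constitutive subunit encoded by Psmb5, and the Psmb8 to Psmb5 ratio was 0.118 to 0.180 in WT and 0.591 to 1.06 in G93A untreated mice at 155 days. Its geometric mean thus went from 0.149 to 0.799, 5.38-fold. The Psmb9 to Psmb6 ratio, of the second such pair, went from 0.0239 to 0.0707, 2.95-fold. The third pair, Psmb10 to Psmb7, differed by less, 0.165 against 0.202, and its groups overlapped (exact two-sided permutation p = 0.114, n = 4 per group). The Tap1 to Tap2 ratio was 0.141 to 0.242 in WT and 0.319 to 0.467 in G93A mice, with geometric means of 0.176 and 0.398, 2.26-fold. B2m relative to H2-K1 and H2-D1 together went from 0.806 to 1.13, 1.40-fold, while the H2-K1 to H2-D1 ratio was 0.350 and 0.380 (exact permutation p = 0.0857, n = 4 per group). In the 4 ratios whose groups did not overlap the exact two-sided p was 0.0286, the smallest that 4 against 4 mice allow, and after Benjamini-Hochberg adjustment over 24 comparisons it was 0.171, so 0 of 24 passed 0.05.

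**Figure D2:**
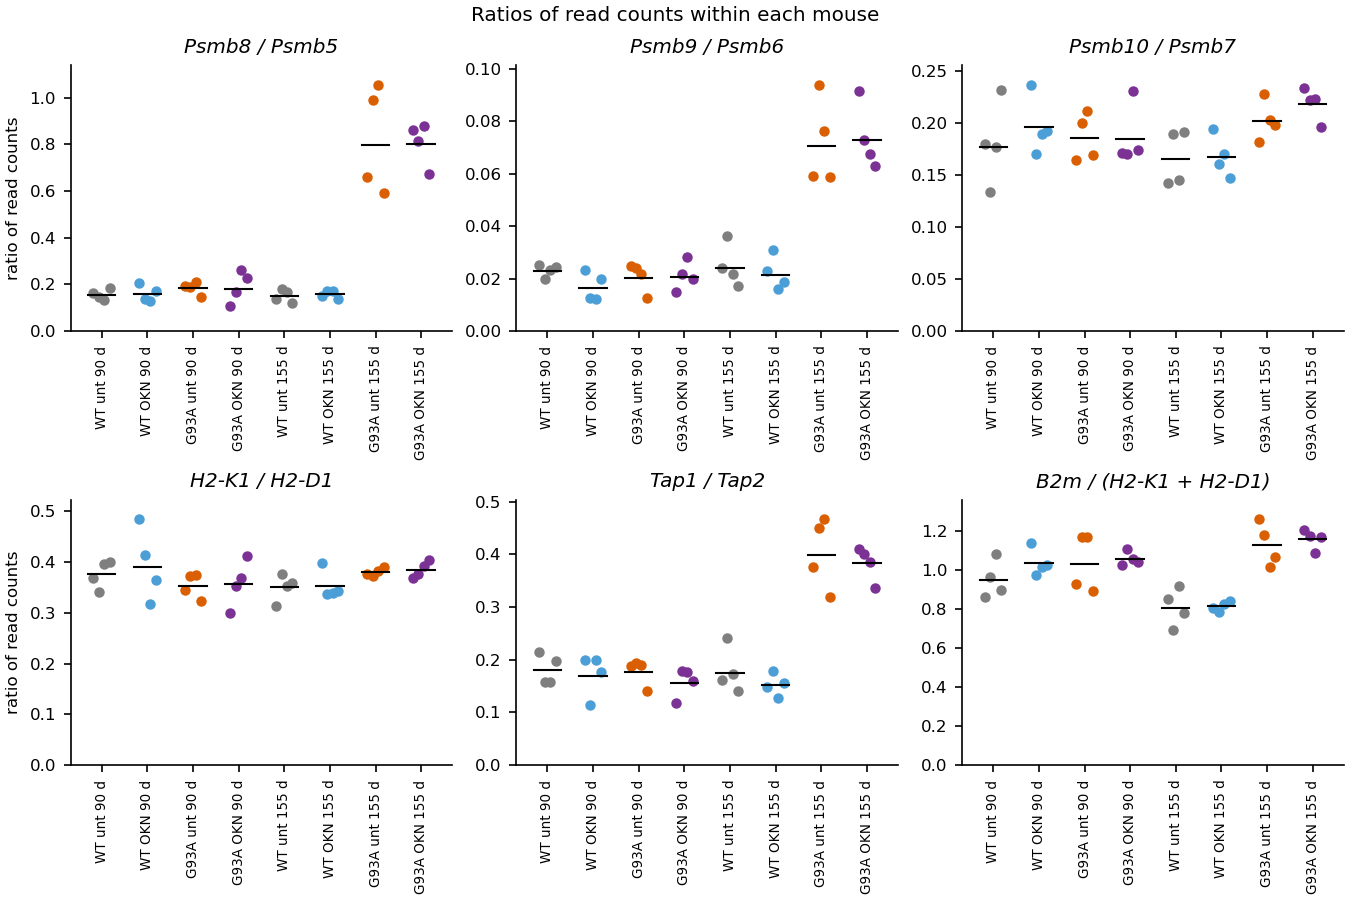
Ratios of read counts of 2 genes within each mouse, on linear axes from 0, with 1 point per mouse and a line at the geometric mean of each group of 4 (unt, untreated; OKN, OKN-007; d, days). Psmb8 to Psmb5 reaches 0.591 to 1.06 in untreated G93A mice at 155 days against at most 0.180 in WT mice of that group and age, whereas Psmb10 to Psmb7 and H2-K1 to H2-D1 overlap between them.

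At 90 days no member differed between untreated G93A and WT mice after adjustment. The count was 0 of 10 members by edgeR's quasi-likelihood test, as for all genes (0.0%), with 1 member and 1126 of all genes at an unadjusted p under 0.05, and DESeq2 also called 0 members. The groups overlapped for all 10 members, where 2.4% of all genes did not overlap in either direction. That 1 member was Psmb8, with 6.78, 5.70, 5.70 and 7.20 CPM in WT and 7.88, 11.2, 9.33 and 6.68 CPM in G93A mice, a log2 difference of 0.46 (95% interval 0.03 to 0.90, adjusted p = 0.822). B2m was at 115, 129, 137 and 117 CPM in WT and at 115, 172, 170 and 117 CPM in G93A mice, so 2 of the 4 G93A mice stood above all WT mice and 2 lay among them (log2 difference 0.21, 95% interval -0.04 to 0.46). Those 2, replicates 10 and 11, had 433 and 416 CPM over the 10 members and 609 and 605 CPM over the microglia markers, against 335 and 341 CPM of members and 432 and 390 CPM of microglia markers in the other 2. Over the members the log2 differences lay between -0.09 and 0.46 with a median of 0.06, and the 95% intervals reached from -0.59 to 0.93.

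The G93A effect was then compared between the ages in 1 fit of all 32 mice. From 90 to 155 days all 10 members rose in untreated G93A mice, by a median of 1.71 and by 0.63 (Tap2) to 1.93 (Psmb8) on the log2 scale, where 21.0% of all genes rose. In untreated WT mice 0 of 10 members changed between the same times, where 15.3% of all genes rose and 9.61% fell, with log2 differences of -0.33 to 0.02, 9 of them negative, an unadjusted p under 0.05 for 0 members and 0 members called by DESeq2. The 4 values of B2m at 155 days lay below the 4 at 90 days (log2 difference -0.28, adjusted p = 0.147), as the 1 member whose groups did not overlap, where 18.9% of all genes did not overlap. Any batch of sequencing and the time cannot be told apart in these 2 comparisons. The difference of the G93A effect between the times was tested as an interaction, and all 10 members passed it, where 12.9% of all genes passed in that direction. The interaction was 2.11 (SE 0.20) for B2m, 2.04 (SE 0.43) for Nlrc5, 1.91 (SE 0.31) for Psmb8, 1.91 (SE 0.23) for H2-K1 and 0.65 (SE 0.12) for Tap2 on the log2 scale, and the adjusted p-values ran from 7.06e-09 for B2m to 0.00741 for Psmb9.

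**Figure D3:**
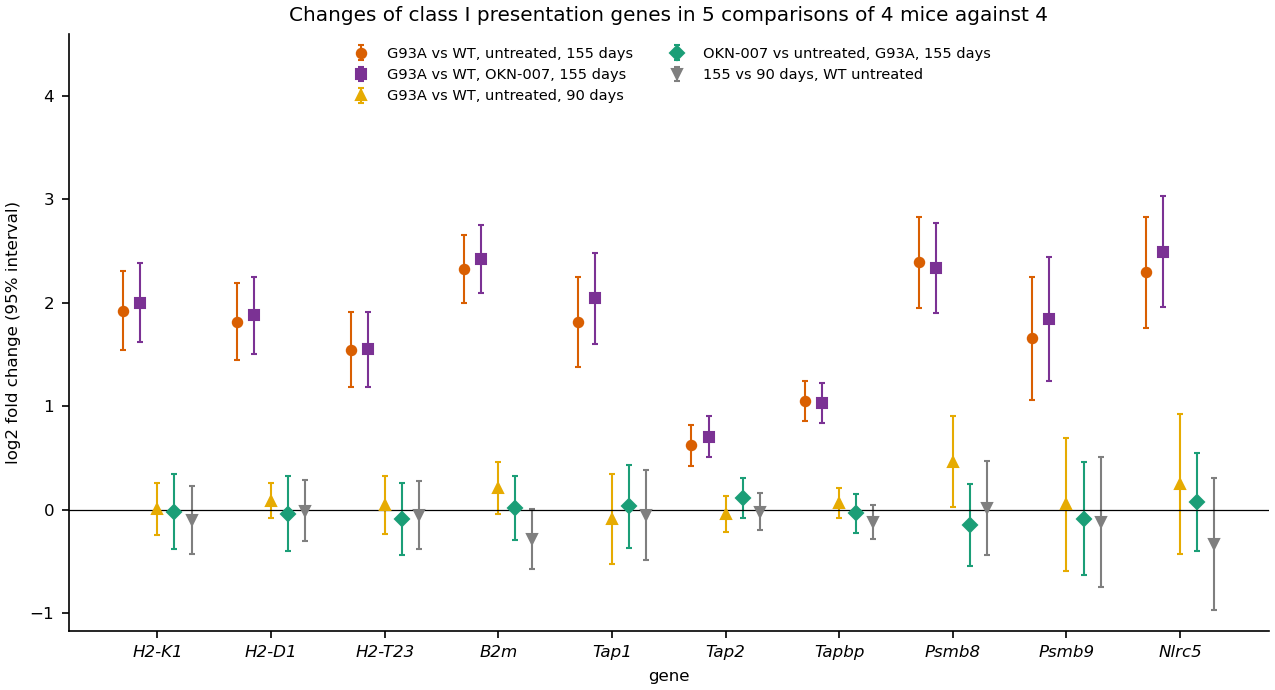
Log2 fold changes of the 10 genes with 95% intervals derived from the edgeR test statistic in 5 comparisons of 4 mice against 4, the first group named minus the second. The G93A effect at 155 days lies between 0.62 and 2.50 with and without OKN-007. The G93A effect at 90 days lies between -0.09 and 0.46, that of OKN-007 in G93A mice between -0.15 and 0.11 and that of time in WT mice between -0.33 and 0.02. Of these smaller effects only Psmb8 at 90 days has an interval that leaves out 0 (0.03 to 0.90).

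No member passed the threshold in any of the 4 comparisons of OKN-007 with untreated mice. In G93A mice at 155 days B2m was at 543, 568, 522 and 410 CPM with OKN-007, against 432, 604, 652 and 349 CPM without it. The treated values lay inside the range of the untreated ones, and the log2 difference was 0.02 (95% interval -0.29 to 0.33). Psmb8 was at 31.9, 29.2, 29.7 and 28.7 CPM with OKN-007 against 28.0, 37.4, 46.3 and 21.96 CPM, a log2 difference of -0.15 (95% interval -0.55 to 0.25). H2-K1 was at 121, 133, 136 and 101 CPM with OKN-007, a log2 difference of -0.02 (95% interval -0.38 to 0.34). The treated mice were closer to each other than the untreated ones in each of these 3 genes, and over the 10 members the coefficient of variation had a median of 13.1% in treated and 29.4% in untreated G93A mice, a difference that was not tested. At 90 days the order was the other way, with 16.4% in treated and 13.3% in untreated G93A mice. Members called were 0 of 10 (0.0% of all genes called), with 0 members and 755 of all genes at an unadjusted p under 0.05 and 0 members by DESeq2. The groups overlapped for all 10 members, where 3.06% of all genes did not overlap. The log2 differences ran from -0.15 to 0.11 and the 95% intervals from -0.63 to 0.55. For each member both ends of its interval were smaller in size than its own G93A effect at 155 days. The median log2 difference of the members was -0.03, and it was -0.16 without the libraries that hold liver transcripts.

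The other treatment comparisons were alike in their counts. In G93A mice at 90 days 0 of 10 members passed (0.0% of all genes), with log2 differences of -0.18 to 0.14, 0 members and 1050 of all genes at an unadjusted p under 0.05, and 0 members whose groups did not overlap (2.88% of all genes). In WT mice at 155 days 0 of 10 passed (0.0% of all genes), with differences of -0.27 to 0.03, 0 members and 549 of all genes at an unadjusted p under 0.05, and 0 members whose groups did not overlap (1.84% of all genes). In WT mice at 90 days 0 of 10 passed (0.0% of all genes), with differences of -0.36 to 0.07. There H2-D1 was at 97.7, 99.4, 90.4 and 93.7 CPM untreated and at 68.8, 84.6, 88.4 and 84.5 CPM with OKN-007, which was the 1 member at an unadjusted p under 0.05 (log2 difference -0.23, adjusted p = 0.993), beside 769 of all genes. H2-D1 and Tap2 were the 2 members whose groups did not overlap there, where 2.03% of all genes did not overlap. DESeq2 called 0 members in each of these comparisons. A test of whether the G93A effect differed with treatment called 0 of 10 members at 155 days and 0 of 10 at 90 days (0.0% of all genes in both), with 0 members at an unadjusted p under 0.05 in both, beside 437 and 531 of all genes.

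With OKN-007, the G93A to WT comparison at 155 days gave the same calls. All 10 members were higher, where 23.3% of all genes were, and the groups did not overlap for 10 of 10 members and for 22.6% of all genes. The log2 fold changes were 2.0 for H2-K1, 1.88 for H2-D1, 1.55 for H2-T23, 2.42 for B2m, 2.04 for Tap1, 0.71 for Tap2, 1.03 for Tapbp, 2.34 for Psmb8, 1.84 for Psmb9 and 2.50 for Nlrc5, with adjusted p-values up to 4.18e-05. The 4 treated G93A mice had 1817 to 2244 CPM of microglia markers and the 4 treated WT mice had 306 to 356 CPM. At 90 days with OKN-007, 0 of 10 members passed (0.0% of all genes), with 2 members and 747 of all genes at an unadjusted p under 0.05. Those 2 were H2-D1 with a log2 difference of 0.20 and Tapbp with 0.15. The groups did not overlap for 2 members, B2m and Tapbp, where 2.84% of all genes did not overlap.

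Other genes of the pathway, from lists written for this comparison, changed in part, and are to be read beside the 21.3% of all genes called higher and the 18.2% called lower. Of 18 other class I heavy chain genes 15 were tested, the other 3 having at most 17 counts in these mice, and 9 rose and 0 fell in untreated G93A mice at 155 days, with a median log2 fold change of 0.61. H2-Q4 was at 6.56 to 10.1 CPM in WT and at 22.98 to 42.7 CPM in G93A mice, a log2 fold change of 2.03 (SE 0.18). H2-Q6 rose by 2.01, H2-Q7 by 1.87 and H2-T24 by 1.22 on the log2 scale. H2-Q6 and H2-Q7 had at most 18 counts in a WT mouse and may have passed the low-count filter through the G93A mice. Their values, and any part they have in the 9, are therefore a description. H2-Q7 was also among the genes sharing most 50-base words with H2-K1 and H2-D1, so some of its reads may be theirs, which was not tested. Hfe, which codes for a class I-like regulator of iron uptake, and Fcgrt, which codes for the neonatal Fc receptor, also pair with B2m and rose by 1.15 and 0.50 on the log2 scale. Both were named after their values were seen.

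Of the 9 genes of peptide loading and trimming 6 rose and 0 fell, with a median of 0.43. Erap1, the aminopeptidase that trims peptides in the endoplasmic reticulum, rose by 0.79 (SE 0.10), Sec61b by 0.56, Tapbpl, a tapasin relative, by 0.54 and Sec61a1 by 0.52 on the log2 scale. Of 5 genes in the list of proteasome activators and the third immunosubunit 2 rose and 1 fell. Psme1 and Psme2, the 2 chains of the activator cap, rose by 0.87 and 0.69, Psme3, another activator, fell by 0.21, and Psmb10, the third immunosubunit, differed by 0.23 (adjusted p = 0.177). Of 14 constitutive core proteasome genes 2 rose, Psma4 by 0.21 and Psma1 by 0.20, and 0 fell, with a median of 0.07. The list medians stand beside 1.82 for the 10 members and 0.00 for all genes.

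Among 19 interferon and NF-kB input genes 17 were tested, of which 14 rose and 1 fell, with a median log2 fold change of 0.67. Irf8, a myeloid factor, rose by 3.26 (SE 0.20), Irf7 by 2.28, the interferon gamma receptor chain Ifngr1 by 1.43 and Irf1, a direct inducer of class I genes, by 1.19 on the log2 scale. Ifng, which codes for interferon gamma itself, had 0 counts in all 8 untreated mice at 155 days, and a count of 0 allows up to 3 counts per library. Of the 8 factors that bind class I promoters beside NLRC5, 2 rose and 3 fell, where 21.3% of all genes rose and 18.2% fell. Nfya, a subunit of the CCAAT-binding factor, rose by 1.01 (SE 0.10) and Atf1 by 0.46, while Rfxap fell by 0.32 and Nfyb, a partner of Nfya, fell by 0.29 on the log2 scale.

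Of 12 genes listed as receptors for class I molecules or as relatives of such receptors, only 4 passed the low-count filter. Since several of these were near 0 in WT mice and passed through the G93A mice, their values are given as a description with no test. Pirb, an inhibitory class I receptor of myeloid cells and neurons, was at 0.217 to 0.596 CPM in WT and 1.59 to 4.72 CPM in G93A mice. Lilrb4a, an inhibitory receptor of myeloid cells in the same family, was at 1 to 12 counts in WT and at 444 to 718 counts in G93A mice. Klrk1, an activating receptor of natural killer cells, was at 2 to 18 counts in WT and 3 to 13 counts in G93A mice. Cd8a, the class I co-receptor of T cells, had 0 to 3 counts in WT and 3 to 14 counts in G93A mice. Cd3g, a T cell receptor chain, had 0 to 4 and 12 to 18 counts. Of 14 markers of T and natural killer cells 5 passed the filter, Cd8a and Cd3g among them. The list summed to 2.91 to 4.66 CPM in WT and 5.82 to 7.41 CPM in G93A untreated mice at 155 days. With OKN-007 at that time it summed to 3.17 to 5.45 CPM in WT and 5.66 to 6.68 CPM in G93A mice. Untreated WT mice at 90 days reached 6.68 CPM, inside the range of the G93A mice at 155 days. The part of these cells in the members' rise was not tested.

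**Figure D4:**
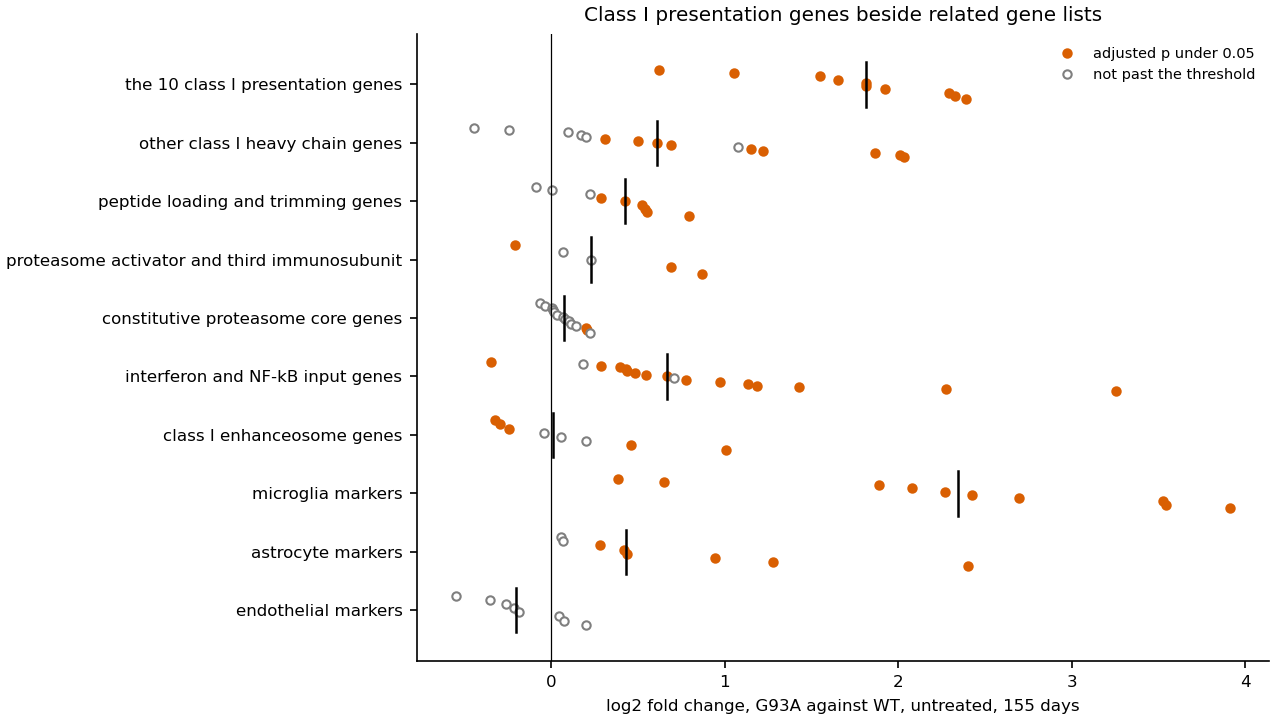
Log2 fold change of each tested gene of the 10 class I presentation genes and of 9 related lists, in untreated G93A against WT mice at 155 days, with the list median as a black bar (filled, adjusted p under 0.05; open, not past it). The 10 members lie between 0.62 and 2.39 with a median of 1.82, the other heavy chain genes around 0.61, the constitutive proteasome around 0.07 and the microglia markers around 2.35.

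The genes most like the members over the 32 mice were sought by Pearson's r. It was taken between a gene's log2 CPM and the mean of the 10 members' log2 CPM, each member first standardized over the mice. The highest were Apoe (r = 0.987), Ctsd (r = 0.986), Tgfb1 (r = 0.986), Cotl1 (r = 0.986) and Apobec1 (r = 0.985), with Spearman's rho from 0.806 to 0.873. Apoe, which codes for apolipoprotein E, was at 3158 ± 519 CPM in WT and 17314 ± 6409 CPM in G93A untreated mice at 155 days (SD, n = 4), and Ctsd, which codes for the lysosomal protease cathepsin D, at 131 ± 17.7 and 983 ± 287 CPM. Of 19819 genes compared, 874 had an r above 0.9, so such values were common. The 8 G93A mice of 155 days stood apart from all the others, and these r values include that separation and carry no test.

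The 10 genes placed the mice of a group alike in some groups and not in others. In untreated G93A mice at 155 days replicate 12 was lowest for 9 of the 10 genes, replicate 11 highest for 6 and replicate 10 highest for 4. In untreated WT mice of that time replicate 2 was highest for 8, and in untreated G93A mice at 90 days replicate 10 was highest for 9. In G93A mice with OKN-007, replicate 16 was lowest for 8 of the 10 genes at 155 days and replicate 13 lowest for 8 at 90 days. In the other 3 groups, all of WT mice, no mouse was highest for more than 4 or lowest for more than 5 of the genes. The coefficient of variation over the members had a median of 21.99% in untreated WT and 29.4% in untreated G93A mice at 155 days. In WT mice with OKN-007 it was 8.54% at 155 days. At 90 days it was 10.9% in treated and 10.1% in untreated WT mice.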

How the data were processed

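Spinal cord RNA of 32 mice was sequenced from TruSeq Stranded mRNA libraries. The authors deposited 1 table of raw read counts per gene, not normalized. The study's methods name Trimmomatic, STAR, HTSeq and GENCODE M10 (GRCm38), while the submitters' processing notes name FastQC, STAR, featureCounts, edgeR and the builds hg38, GRCm39 and mm39. The table holds 1306 gene IDs above the highest of GENCODE M21, so the annotation was newer than M10, and whether reads were counted by strand was not given in the sources used here. Symbols and coordinates were taken from GENCODE M21 (GRCm38), which paired 41203 (96.9%) of 42524 genes.

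The counts were fitted with edgeR 4.0.16 in R 4.3.3 (filterByExpr, TMM, glmQLFit, glmQLFTest). For each time the 16 mice were fitted as 4 groups, and comparisons between times used all 32 mice. Benjamini-Hochberg adjustment ran over all genes, with a threshold of 0.05. CPM use TMM factors of all 32 mice. The difference of mean log2 ratios (0.5 counts added) was tested by exact permutation of mice. Groups, from the labels, held 4 mice each. Total counts were 19701722 to 30138257 per mouse, and 3 counts equal 0.152 CPM in the smallest library. No pair of libraries in a group was alike within sampling noise. The scripts were tested on simulated data. Alternatives were RLE factors, DESeq2 1.42.0, the likelihood ratio test of edgeR, 2 other filters on low counts, an adjusted p of 0.1, other sets of mice in the fit, the caudal Hox level as a covariate, libraries left out, 1 count added in the ratios and the sample number as a block.

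The members and lists were chosen with earlier results of these data known. Named were all members, up to 4 genes of each list with the largest absolute log2 fold change in untreated mice at 155 days, list genes past the threshold with OKN-007 (there were 0), the 5 genes most like the members and the genes of the ratios. Hfe, Fcgrt and the overlapping genes were named after their values were seen.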

Additional observations from a re-analysis of the deposited data

Results flagged for a closer look

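In 7 of 128 groups of 4 mice examined, 1 mouse lay far from the other 3 by Dixon's test, and chance alone gives about 6.4. H2-K1 was at 44.6 CPM in replicate 2 of the untreated WT mice at 155 days, where the next value was 30.4 CPM, and Psmb9 was at 3.60 CPM in the same mouse, next to 1.68 CPM. H2-T23 was at 33.8 CPM in replicate 14 of the treated G93A mice at 155 days, next to 28.7 CPM. Tap2 was at 20.99 CPM in replicate 11 of the untreated G93A mice at 90 days, below the next value of 22.8 CPM. The Psmb10 to Psmb7 ratio was 0.231 in replicate 15 of the treated G93A mice at 90 days, next to 0.174. The H2-K1 to H2-D1 ratio was 0.399 in replicate 5 of the treated WT mice at 155 days, next to 0.343. The Tap1 to Tap2 ratio was 0.141 in replicate 12 of the untreated G93A mice at 90 days, next to 0.188.

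The G93A effect differed between 155 and 90 days for all 10 genes, by the interaction in edgeR's quasi-likelihood test with Benjamini-Hochberg adjustment. Of all genes tested, 12.9% passed it in the same direction. The difference on the log2 scale was 1.91 for H2-K1, 1.72 for H2-D1, 1.49 for H2-T23, 2.11 for B2m, 1.89 for Tap1, 0.65 for Tap2, 0.98 for Tapbp, 1.91 for Psmb8, 1.59 for Psmb9 and 2.04 for Nlrc5, with all 4 G93A mice at 155 days above all 4 WT mice for each. For 17.4% of all genes the untreated G93A mice also lay above all WT mice at 155 days.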

How the results depend on the processing

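Of 125 counts of members called under an alternative that kept every mouse or left out the liver libraries, 124 equalled the main count, and so did 128 of 128 counts with 1 mouse left out. The exception was the comparison of 155 with 90 days in untreated WT mice, where the sample number as a replicate block called 1 member in place of 0, B2m with a log2 difference of -0.28 (adjusted p = 0.0341, against 0.147 without the block). The numbers do not pair the mice: the animals of the 2 times are different, and of 16 pairs of mice with the same number 2 had a correlation of deviations above 0.1 (range -0.215 to 0.134) and 2 mice were closest to their own number. The block changed no other count. Within a time, no paired analysis was possible because the groups share no numbers.

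No called value changed its direction. By more than 1 SD between mice, 4 of 1120 single values moved under an alternative, and 16 of 1280 single values and 4 of 128 medians moved with 1 mouse left out. The 4 were the OKN-007 differences in G93A mice at 155 days without the liver libraries, -0.21 for H2-K1, -0.22 for H2-D1, -0.15 for B2m and -0.14 for Tapbp, none of them called. Of the medians, that of G93A against WT in untreated mice at 155 days was 2.06 without WT replicate 2. Of the values that were not called, 33 changed sign under an alternative, none larger than 0.151 on the log2 scale, and 143 with 1 mouse left out, none larger than 0.272. The ratios kept their side of the threshold in 24 of 24 and 192 of 192 cases. With 4 mice per group the ratio test cannot give a p under 0.0286, so its adjusted values say little about stability. Psmb9 and Nlrc5, with as few as 29 and 31 reads in a mouse, had the largest standard errors in each comparison.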

Other observations

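The markers of the other cell types of the cord differed in direction in untreated mice at 155 days. Of 9 neuron markers 9 were lower in G93A than in WT mice, with a median log2 fold change of -0.83, where 18.2% of all genes were called lower and 21.3% higher, and the neurofilament genes Nefh, Nefl and Nefm fell by 1.23, 1.10 and 1.05 on the log2 scale. Of 8 motor neuron markers 7 were lower. Among them Chodl, a marker of fast motor neurons, was at 19.9 to 35.3 CPM in WT and 3.17 to 4.59 CPM in G93A mice, and Mnx1 fell by 1.29. Of 8 astrocyte markers 6 were higher, with Gfap, the intermediate filament of reactive astrocytes, up by 2.40 and the water channel Aqp4 by 1.28. Of 7 oligodendrocyte markers 2 were higher, Cldn11 by 0.90 and Mag by 0.25, and of 6 blood genes 5 were tested and 0 passed. Of 10 caudal Hox genes 5 were lower and 0 higher, and of 7 liver genes 5 were tested and 0 passed.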
